A study of Mus musculus with 2 samples.

Results

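Mural cells, the pericytes and smooth muscle cells that wrap blood vessels, were picked out of single-cell transcriptomes of mouse cornea and limbus, the vascular rim of tissue around the cornea. A cell was taken as mural when it held at least 500 UMIs (unique molecular identifiers, each counted as 1 RNA molecule), at most 20% mitochondrial UMIs and less than 3000 CPM (UMIs per 1000000 UMIs) of the basal keratins Krt5 and Krt14 together, and when at least 3 of 8 marker genes were detected. These markers were Rgs5, Cox4i2, Higd1b, Myh11, Des, Notch3, Kcnj8 and Abcc9. The rule found 136 cells among the 16163 that met the UMI and mitochondrial limits, 84 of 9007 in the injured library and 52 of 7156 in the uninjured library. The members were thus chosen by the detection of these 8 genes and by their keratin level in the same cells, so those levels describe the choice and are no finding.

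The study set 1 library from NaOH-injured wild-type eyes against 1 library from uninjured wild-type eyes, with alkali as the injury. Neither age, strain, sex nor the time between injury and harvest was given in the sources used here. In both groups most of the conjunctiva, the iris and the trabecular tissue had been dissected away and the remaining anterior segment digested with liberase and trypsin at 37 degrees, so vessels reached the suspension only as far as the limbus was kept and came apart. With 1 library a group there was no replicate: cells of 1 library share a source, no test was possible, and the intervals given are 95% intervals that cover counting error only.

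The central cornea carries no vessels, and those of the limbus are arterioles, capillaries and venules. Arteriolar smooth muscle contracts through actin, tropomyosin and a myosin whose light chain is phosphorylated, under control of the factors Srf and Myocd. Pericytes share a basement membrane with the capillary endothelium, are recruited by PDGF-B through the receptor Pdgfrb, and carry an ATP-sensitive potassium channel built from Kcnj8 and Abcc9. Between them lie transitional forms, and both kinds can secrete matrix, divide and release chemokines after injury.

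Mural cells made up 0.933% of cells in the injured library (0.745 to 1.15%) and 0.727% in the uninjured library (0.543 to 0.952%), and the intervals overlapped. This depended on the keratin limit: below 1000 CPM of Krt5 and Krt14, 77 injured cells (0.855%, 0.675 to 1.07%) and 31 uninjured cells (0.433%, 0.295 to 0.614%) were left, and the intervals no longer overlapped. They differed in depth. The median mural cell held 6254 UMIs in the injured library (548 to 22590 over cells) and 2094 UMIs in the uninjured library (834 to 5826), whereas all cells passing the limits had medians of 10834 and 10285.5 UMIs. Sums over the mural cells came to 642531 UMIs in the injured and 118058 UMIs in the uninjured library. Mitochondrial UMIs took a median of 3.54% in injured and 3.46% in uninjured mural cells. Of 15 barcodes present in both libraries none was mural.

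The label was checked on genes that the rule did not use. Acta2 (smooth muscle actin) was detected in 82 of 84 injured and 42 of 52 uninjured mural cells. After every cell was thinned to 1000 UMIs, 94.0% of injured and 70.0% of uninjured mural cells held an Acta2 UMI, against 6.16% and 0.268% of epithelial cells in the same libraries. Pdgfrb, thinned in the same way, was found in 32.5% of injured and 38.0% of uninjured mural cells, against 0.205% of injured epithelial cells and none of 5966 uninjured ones. Stromal cells held Pdgfrb too, at 196 CPM in the injured and 170 CPM in the uninjured library, against 289 and 322 CPM in mural cells. Pdgfrb therefore set mural cells apart from epithelial cells more than from stromal cells. Among the genes of at least 100 CPM with the largest excess over every other group of cells were Vtn (vitronectin), Gucy1a1 and Gucy1b1 (both subunits of the nitric oxide receptor guanylate cyclase), Rgs4, Myl9 (myosin regulatory light chain), Aoc3 (vascular amine oxidase), Ppp1r14a (an inhibitor of myosin phosphatase), Ccl11 (eotaxin), Acta2 and Mnd1 (a meiotic recombination factor). Vtn stood at 125 CPM in injured and 203 CPM in uninjured mural cells, and at no more than 0.109 and 2.12 CPM in any other group of those libraries. Gucy1b1 stood at 195 CPM in injured and 288 CPM in uninjured mural cells, against at most 2.52 and 2.12 CPM elsewhere. Markers of skeletal muscle were near 0 in both libraries, as were those of red blood cells.

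RNA of other cells was present in the sums. The 10 epithelial markers summed to 794 CPM in injured and 4007 CPM in uninjured mural cells. Krt12 (the corneal keratin) was at 0 in injured mural cells, where epithelial cells themselves had 25.3 CPM, and at 1940 CPM in uninjured ones, 9.90% of its epithelial level. Sfn (stratifin) reached 3.60% of its epithelial level in injured and 9.68% in uninjured mural cells. Stromal markers summed to 4750 CPM in injured and 1245 CPM in uninjured mural cells, neutrophil markers to 440 and 16.9 CPM, and myeloid markers to 246 and 0 CPM. At least 5 of 10 stromal markers were found in 5 injured and no uninjured mural cells, and at least 3 in 46 injured and 2 uninjured ones. At least 5 epithelial markers were found in 19 mural cells of each library, and at least 5 neutrophil markers in 2 injured cells. At least 5 of 10 myeloid markers were found in 4 injured and no uninjured mural cells, and at least 5 of 10 endothelial markers in 2 uninjured and no injured ones. Genes standing below 25% of their level in another group of cells are described below as at free RNA levels, and the part such RNA played was not tested.

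Of the 8 markers used for the choice, Rgs5 (a brake on G-protein signalling) had 5349 CPM in injured and 6590 CPM in uninjured mural cells. Myh11 (smooth muscle myosin) had 647 and 525 CPM, Des (desmin) 406 and 373 CPM, Notch3 330 and 525 CPM, Kcnj8 171 and 280 CPM, and Abcc9 238 and 508 CPM in injured and uninjured cells. Cells just inside the rule, with exactly 3 markers, numbered 4 in the injured library, with 1720 CPM of Acta2 and 6880 CPM of Dcn (decorin, a stromal proteoglycan), and 10 in the uninjured library, with 1520 CPM of Acta2 and no Dcn. Cells just outside it, with 2 markers, numbered 16 in the injured library, with 148 CPM of Acta2 and 5884 CPM of Dcn, and 6 in the uninjured library, with 2765 CPM of Acta2. A further 13 injured and 5 uninjured cells held 3 markers but passed the keratin limit and were left out.

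Smooth muscle and pericyte features were set against each other by UMIs of 7 genes. Cells counted as smooth muscle-side when Myh11, Cnn1 (calponin) and Lmod1 (leiomodin) together had more than 2 times the UMIs of Kcnj8, Abcc9, Higd1b and Cox4i2, as pericyte-side in the opposite case, and otherwise as between. This gave 17 smooth muscle-side, 40 pericyte-side and 27 between cells in the injured library, and 6, 29 and 17 cells of these kinds in the uninjured library. Smooth muscle-side cells were 20.2% of injured mural cells (12.3 to 30.4%) and 11.5% of uninjured ones (4.35 to 23.4%), with overlapping intervals. Depth bears on the split: the 3 smooth muscle genes had no UMI in 10 of 40 injured and 22 of 29 uninjured pericyte-side cells. The uninjured smooth muscle side rests on 14156 UMIs in all.

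**Figure D1:**
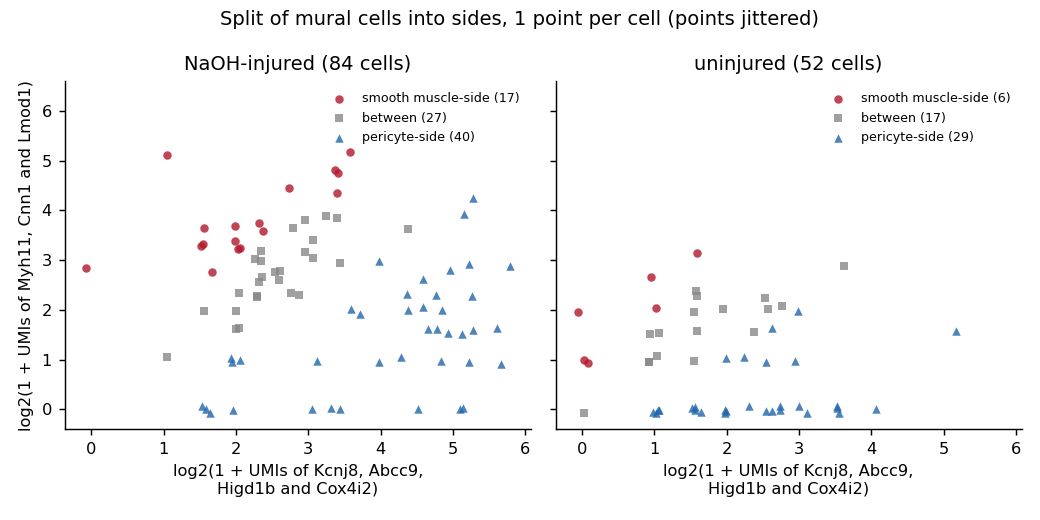
UMIs of the 3 smooth muscle split genes (vertical) against those of the 4 pericyte split genes (horizontal), each as log2(1 + UMIs), in 84 NaOH-injured mural cells (left) and 52 uninjured mural cells (right), with the side of each cell given by colour and shape. Cells form a continuous field with many between the sides, and most uninjured pericyte-side cells lie on the bottom line, with no smooth muscle UMI.

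Contractile genes outside the split followed it in both libraries. Of 596 genes with at least 20 UMIs in each library over both sides, 17 were at least 2-fold higher on the smooth muscle side in both libraries, 2.85%, and 8 were at least 2-fold lower in both, 1.34%. The split gene Myh11 is among the 17, and Cox4i2 and Kcnj8 are among the 8. Of 12 contractile genes counted, 7 were higher in both libraries and none was lower. Their median log2 ratio of smooth muscle over pericyte side was 1.19 in injured and 1.49 in uninjured cells, against −0.04 and −0.10 over all genes counted.

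Tagln (transgelin, an actin-bundling protein) stood at 7711 CPM on the smooth muscle side and 1919 CPM on the pericyte side of injured cells, a 4.02-fold ratio (3.64 to 4.44). In uninjured cells it stood at 5581 CPM on the smooth muscle side and 946 CPM on the pericyte side, a 5.90-fold ratio (4.17 to 8.40). Per cell, Tagln ranged over 2498 to 21080 CPM (median 6938) on the injured smooth muscle side and over 0 to 7923 CPM (median 1394) on the injured pericyte side. In the uninjured library it ranged over 503 to 12053 CPM (median 5095) on the smooth muscle side and over 0 to 5972 CPM on the pericyte side, where 18 of 29 cells held none. The ranges of the sides overlapped in each library, and every smooth muscle-side cell held the gene.

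Acta2 stood at 14182 CPM on the smooth muscle side and 4956 CPM on the pericyte side of injured cells, and at 5510 and 1482 CPM on these sides in uninjured cells. Its per-cell median was 13119 CPM on the smooth muscle side and 4674 CPM on the pericyte side of the injured library, and 5125 and 817 CPM on these sides of the uninjured library. By these medians the injured pericyte side stood near the uninjured smooth muscle side. Myl9 had log2 ratios of smooth muscle over pericyte side of 1.46 in injured and 1.60 in uninjured cells, and Tpm2 (beta-tropomyosin) had 1.15 and 2.16. Mustn1 (a small nuclear protein of muscle and skeleton) had 1169 CPM on the smooth muscle side against 70.3 CPM on the pericyte side in injured cells, and 918 against 205 CPM in uninjured cells. The uninjured value of Mustn1 rests on 13 UMIs on each side.

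**Figure D2:**
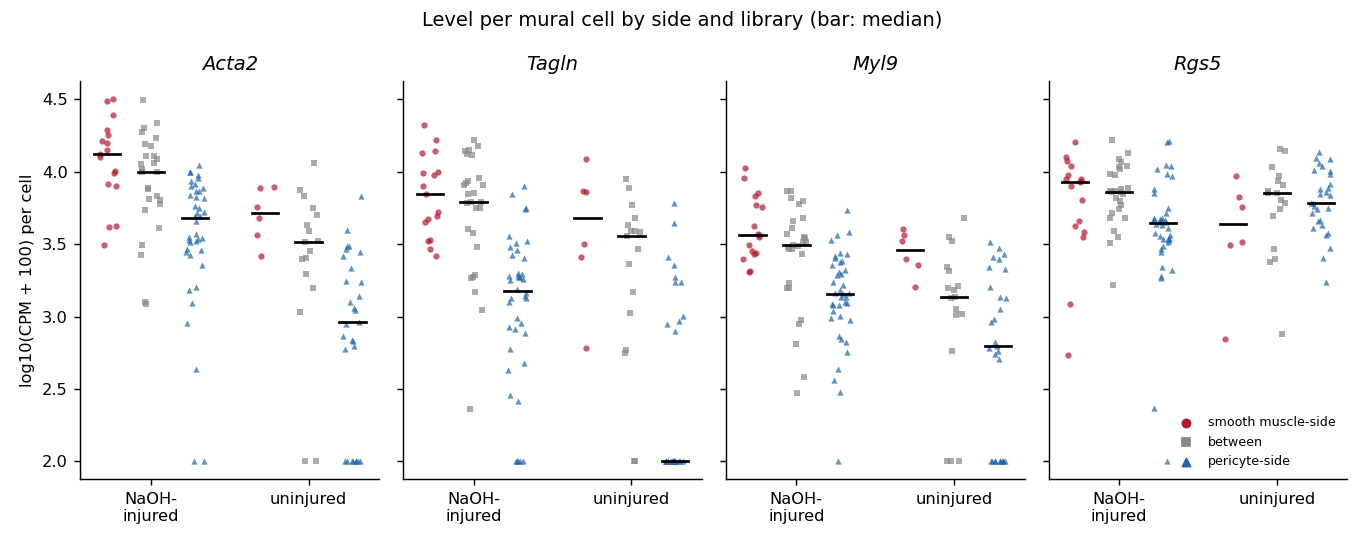
Level of Acta2, Tagln, Myl9 and Rgs5 in each mural cell as log10(CPM + 100), with the NaOH-injured library left and the uninjured library right in each panel, sides by colour and bars at the median. Acta2, Tagln and Myl9 step down from the smooth muscle side over the between cells to the pericyte side in both libraries, and the uninjured Tagln median of the pericyte side lies at 0 CPM. The choosing marker Rgs5 differs between the libraries. Its median is 8335 CPM on the smooth muscle side and 4298 CPM on the pericyte side of injured cells, and 4388 and 5975 CPM in uninjured cells.

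The other named genes of the smooth muscle side were Irf1 (an interferon-induced transcription factor), Dstn (destrin, which severs actin filaments), Rock1, Flna (filamin, an actin cross-linker), Sncg (gamma-synuclein) and Crip1 (a small LIM protein). Dstn had log2 ratios of 1.68 in injured and 1.27 in uninjured cells, Flna 1.34 and 1.26, Rock1 1.26 and 1.34, and Irf1 1.70 and 1.75. In uninjured cells the intervals of the ratio held 1 for Flna (0.878 to 6.01) and Sncg (0.932 to 5.63). Of these, Flna and Crip1 belong to the contractile list. Atp2a2 (SERCA2, the calcium pump of the sarcoplasmic reticulum) was also more than 2-fold higher in both, with 431 CPM on the smooth muscle side against 195 CPM on the pericyte side of injured cells and 706 against 221 CPM in uninjured cells.

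The pericyte side carried a chemokine and a vasoactive receptor. Ccl2 (which attracts monocytes) stood at 1257 CPM on the smooth muscle side and 3602 CPM on the pericyte side of injured cells, and at 0 and 1292 CPM in uninjured cells, where none of 6 smooth muscle-side and 11 of 29 pericyte-side cells held it. Ednrb (endothelin receptor type B) stood at 396 CPM on the smooth muscle side and 1219 CPM on the pericyte side of injured cells, and at 70.6 and 457 CPM in uninjured cells, with 1 UMI on the uninjured smooth muscle side and an interval of that ratio from 0.00378 to 0.932. Cygb (cytoglobin, a globin of pericytes and fibroblasts) stood at 61.5 CPM on the smooth muscle side and 322 CPM on the pericyte side of injured cells, and had 1 UMI and 32 UMIs on these sides of the uninjured library, where the interval of the ratio ran from 0.00344 to 0.839. Phlda1 stood at 563 CPM on the smooth muscle side and 1327 CPM on the pericyte side of injured cells, and had 3 and 63 UMIs in uninjured cells, with an interval from 0.0429 to 0.653. Tcf4 (a helix-loop-helix factor) and Hsp90b1 (a chaperone of the endoplasmic reticulum) also passed 2-fold in both libraries, on 3 and 2 UMIs on the uninjured smooth muscle side, and their uninjured intervals held 1 (0.0800 to 1.30 for Tcf4 and 0.0383 to 1.32 for Hsp90b1). Trib1, Steap4 (a metalloreductase), Emp1 and Krt5 were next in order and did not pass 2-fold in both. Krt5 was part of the keratin limit of the rule and stood at free RNA levels in mural cells. Of 7 counted genes of the pericyte list other than the split genes, none passed 2-fold in both libraries. Pdgfrb had log2 ratios of −0.42 in injured and −0.48 in uninjured cells. Rgs5, a choosing marker, went opposite ways, with log2 ratios of 0.62 in injured and −0.44 in uninjured cells.

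**Figure D3:**
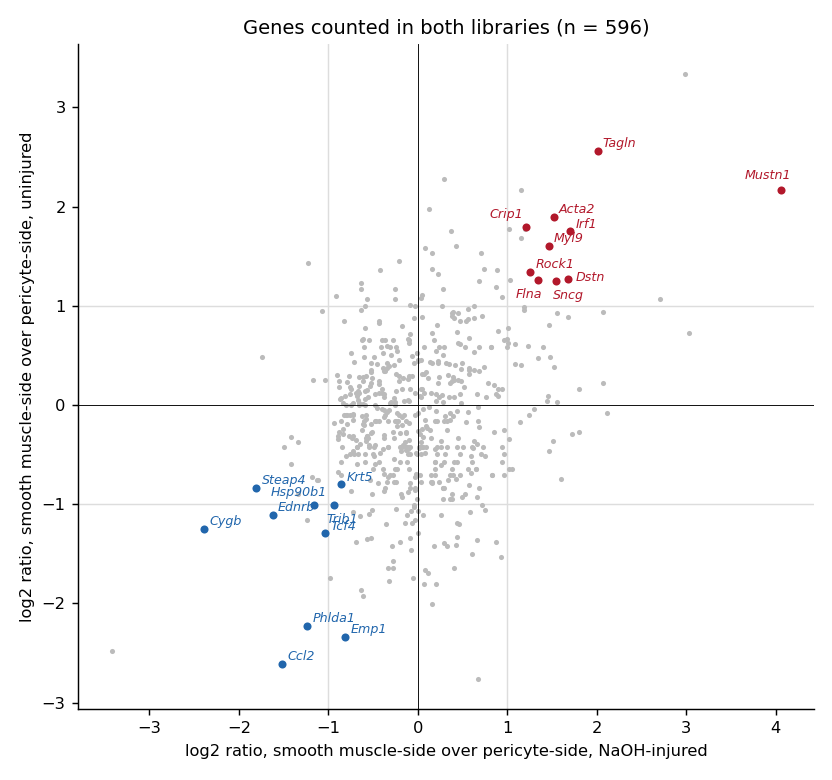
Log2 ratio of smooth muscle-side over pericyte-side CPM in NaOH-injured cells (horizontal) and in uninjured cells (vertical) for the 596 genes counted, with the 10 named genes of each direction coloured and lines at 2-fold. Contractile genes such as Tagln and Acta2 sit at the upper right and Ccl2, Cygb and Phlda1 at the lower left, while most genes scatter around 0.

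Sequence upstream of contractile and pericyte genes is shown because Acta2 and Myl9 differed together between the sides and because the box that binds Srf is short and searchable. The CArG box was sought as a pair of C, 6 inner bases and a pair of G, with A or T at all 6 inner positions (an exact box) or at 5 or more of them. The pattern is its own reverse complement, so 1 search covers both strands. The window ran from 250 bases before to 50 bases after each start in the RefSeq table of GRCm38.p6, which holds 27 of the 33 contractile genes. An exact box lay in 6 of 33 contractile promoters, 18.2%, against 1.63% of all 32851 promoters, and one with at most 1 inner base off in 11 of 33, 33.3%, against 9.98% of all. Ldb3 gave more than 1 of the 6 by its separate starts, so that 5 of the 27 genes held an exact box. Of 28 promoters of the pericyte list, 1 held an exact box, 3.57%, and 3 held one with at most 1 inner base off, 10.7%. None of the 5 promoters found for the 8 choosing markers held either form. A match describes letters and shows no binding. Capitals mark the boxes below, 5′ to 3′ on the strand of the gene, in GRCm38.p6. For Acta2 (chr19:34255438-34255467 and chr19:34255388-34255417, minus strand) only 30 bases around each box are given, since GENCODE M21 places a start further upstream. The Myl9 stretch is chr2:156775214-156775419 (plus strand), that of Rgs5 chr1:169655251-169655500 (plus strand) and that of Kcnj8 chr6:142571615-142571864 (minus strand).
Acta2, upstream box: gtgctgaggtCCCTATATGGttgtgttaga
Acta2, downstream box: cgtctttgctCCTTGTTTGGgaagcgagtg
Myl9: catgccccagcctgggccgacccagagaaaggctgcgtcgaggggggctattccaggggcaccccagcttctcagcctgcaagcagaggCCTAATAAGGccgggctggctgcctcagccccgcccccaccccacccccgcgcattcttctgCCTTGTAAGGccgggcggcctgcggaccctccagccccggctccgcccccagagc
Rgs5: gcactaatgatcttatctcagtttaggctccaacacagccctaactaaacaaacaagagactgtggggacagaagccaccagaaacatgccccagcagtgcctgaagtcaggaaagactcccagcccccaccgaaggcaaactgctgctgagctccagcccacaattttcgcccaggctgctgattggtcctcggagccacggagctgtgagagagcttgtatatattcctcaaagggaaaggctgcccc
Kcnj8: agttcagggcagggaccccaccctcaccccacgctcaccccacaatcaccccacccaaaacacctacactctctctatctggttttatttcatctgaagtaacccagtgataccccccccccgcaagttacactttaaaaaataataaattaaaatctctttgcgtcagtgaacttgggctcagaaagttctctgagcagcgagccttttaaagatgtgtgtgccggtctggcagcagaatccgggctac
Of the boxes shown, the upstream one of Myl9 is exact and the other 3 have 1 inner base that is neither A nor T. In these windows Rgs5 and Kcnj8 hold neither form. Of the contractile genes higher on the smooth muscle side in both libraries, Acta2, Myl9 and Crip1 hold a box of either form. Tpm2, Mustn1 and Flna hold neither, nor do the split genes Cnn1 and Lmod1, and Tagln was not among the 27 genes found. Exact boxes outside Myl9 lay in Myl6, Vcl, Ldb3 and Fhl1, none of them among the genes higher in both libraries. A link between boxes and sides was not tested.

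The comparison the study made, NaOH-injured against uninjured, was then taken over all mural cells of each library. Of 2282 genes with at least 50 UMIs over both libraries, 458 were at least 2-fold higher in injured mural cells, 20.1%, and 220 at least 2-fold lower, 9.64%; the median log2 ratio was 0.25. This balance depends on how genes enter. Summed over mural cells the injured library holds 642531 UMIs against 118058, so the minimum of 50 UMIs admits more genes that are high there. With a minimum of 100 CPM on the mean of both libraries, 181 of 1478 genes were higher and 217 lower. That setting was added after the data were seen. With every cell thinned to 1000 UMIs, 42 of 403 genes were higher and 58 lower. Scaling by the median ratio shifted all log2 ratios by 0.16 and gave 577 higher and 161 lower. Single genes and lists are therefore read against 20.1 and 9.64% and against the median.

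**Figure D4:**
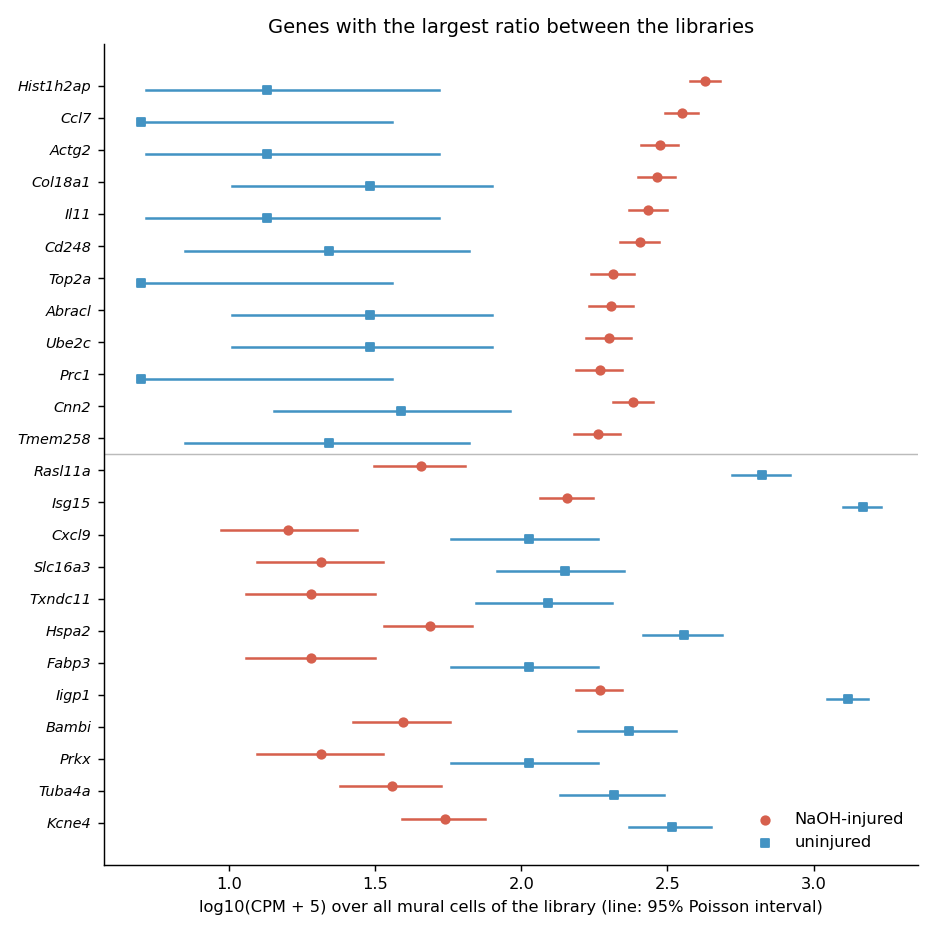
Level of the 24 named genes as log10(CPM + 5) in the mural cells of the NaOH-injured library (circles) and of the uninjured library (squares), with 95% Poisson intervals. The intervals of the libraries do not overlap for any of the 12 genes higher in injured cells (top) or the 12 lower (bottom). These genes were chosen for the largest ratios between the same counts, so the lack of overlap describes the choice. Intervals of the uninjured library are wide where 0 to 4 UMIs were counted.

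Contractile genes stood higher in injured mural cells. Of 23 counted, 7 were at least 2-fold higher and 1 lower, and their median log2 ratio was 0.86 (0.35 to 1.10). Acta2 (chr19:34241090-34255590) stood at 7852 CPM in injured cells (7637 to 8071) and 2702 CPM in uninjured cells (2414 to 3015), 2.91-fold. Per cell it ranged over 0 to 31621 CPM (median 6985) in the injured and 0 to 11374 CPM (median 1958) in the uninjured library, so the libraries overlapped. The ratio was present on both sides of the split, at 2.57-fold on the smooth muscle side (2.05 to 3.27) and 3.34-fold on the pericyte side (2.72 to 4.16). Tagln (chr9:45929619-45936058) stood at 4000 CPM in injured and 2329 CPM in uninjured cells, and Myl9 (chr2:156775420-156781658) at 2375 and 1398 CPM, both less than 2-fold apart.

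Actg2 (gamma smooth muscle actin of gut and vessel walls; chr6:83512905-83536265) was counted 188 times in 39 injured cells and 1 time in 1 uninjured cell, and the interval of the ratio ran from 6.12 to 1372. In no other group of cells did it pass 8.74 CPM in the injured and 35.6 CPM in the uninjured library. Ppp1r14a stood at 456 CPM in injured and 127 CPM in uninjured cells, Csrp1 (a muscle LIM protein) at 707 and 254 CPM, and Tpm2 at 2915 and 1364 CPM. Nexn (nexilin, an actin-binding protein) stood at 177 and 59.3 CPM and Pdlim7 at 128 and 50.8 CPM, on 7 and 6 uninjured UMIs. Pcp4l1 was the contractile list member that was lower, at 90.3 CPM in injured and 203 CPM in uninjured cells. Of 10 counted transcription factors of mural cells, Tbx2 was higher on 4 uninjured UMIs, and Foxc1 and Klf4 (which represses contractile genes in cultured smooth muscle) were lower. Klf4 stood at 495 CPM in injured and 1118 CPM in uninjured cells.

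Matrix genes formed the list with the most members past 2-fold. Of 28 fibrillar and elastic genes counted, 20 were higher and none lower, with a median log2 ratio of 1.46 (1.20 to 2.21). Of the 28, 9 were at free RNA levels, among them Col1a1, Dcn and Lum, and 12 of the other 19 were higher, with a median of 1.36. Summed stromal markers moved the same way, as given above, and their part was not tested. An alternative left out members with at least 10000 CPM of Dcn, Lum, Kera and Col1a1 together. It also left out those with at least 3 endothelial, myeloid, Schwann or neutrophil markers. Of 84 injured members it kept 69, though 46 held at least 3 stromal markers, so most of those stayed in. There 14 of 22 genes were higher and the median was 1.30. Col3a1 (collagen III) stood at 2795 CPM in injured and 1033 CPM in uninjured mural cells. Postn (periostin, induced in healing connective tissue) stood at 511 CPM in injured and 110 CPM in uninjured cells, and Col6a3 at 483 and 76.2 CPM. Ccn2 (connective tissue growth factor) had 98 UMIs in 19 injured cells and none in uninjured cells, and 1 cell held 25.5% of them. No smooth muscle-side cell of either library held Ccn2.

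Of 11 basement membrane genes counted, 3 were higher and 1 was lower, against 20.1 and 9.64% of all genes. Their median log2 ratio was 0.85 (−0.54 to 1.45), and the interval held the median of all genes, 0.25. Col4a1 and Col4a2, which encode the chains of collagen IV, stood at 1549 and 858 CPM in injured cells and at 568 and 313 CPM in uninjured cells, 2.73-fold (2.13 to 3.55) and 2.74-fold (1.96 to 3.93) higher. Col18a1, the source of endostatin (chr10:77052178-77166548), had 184 UMIs in 57 injured cells and 3 UMIs in 3 uninjured cells, with an interval of the ratio from 3.80 to 55.1. Sparcl1 (an antiadhesive matrix protein) stood at 834 CPM in injured and 1914 CPM in uninjured cells. Serpinh1 (the collagen chaperone HSP47) stood at 853 CPM in injured and 237 CPM in uninjured cells.

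Among proteases and their inhibitors, 10 of 16 were higher and 3 lower, with a median log2 ratio of 1.71 (−0.72 to 2.02). The higher calls depended on which genes entered. Of the 16, 5 were at free RNA levels, among them Mmp3, of which 1 injured cell held 53.5%, and 5 of the other 11 were higher, with a median of 0.49. With a mean of at least 100 CPM, 4 of 10 were higher and 3 lower, and with at least 200 UMIs 3 of 8 were higher and 3 lower, with a median of 0.04 under both. Adamts1 (which cleaves versican and aggrecan) stood at 887 CPM in injured and 3159 CPM in uninjured cells, 3.56-fold lower (3.12 to 4.07). Adamts4 stood at 523 CPM in injured and 2135 CPM in uninjured cells, and Timp3 (a matrix-bound inhibitor of metalloproteases) at 819 and 2541 CPM. Timp3 was lower on the pericyte side, with 754 CPM in injured against 3200 CPM in uninjured cells, and stood at 1011 against 1201 CPM on the smooth muscle side.

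**Figure D5:**
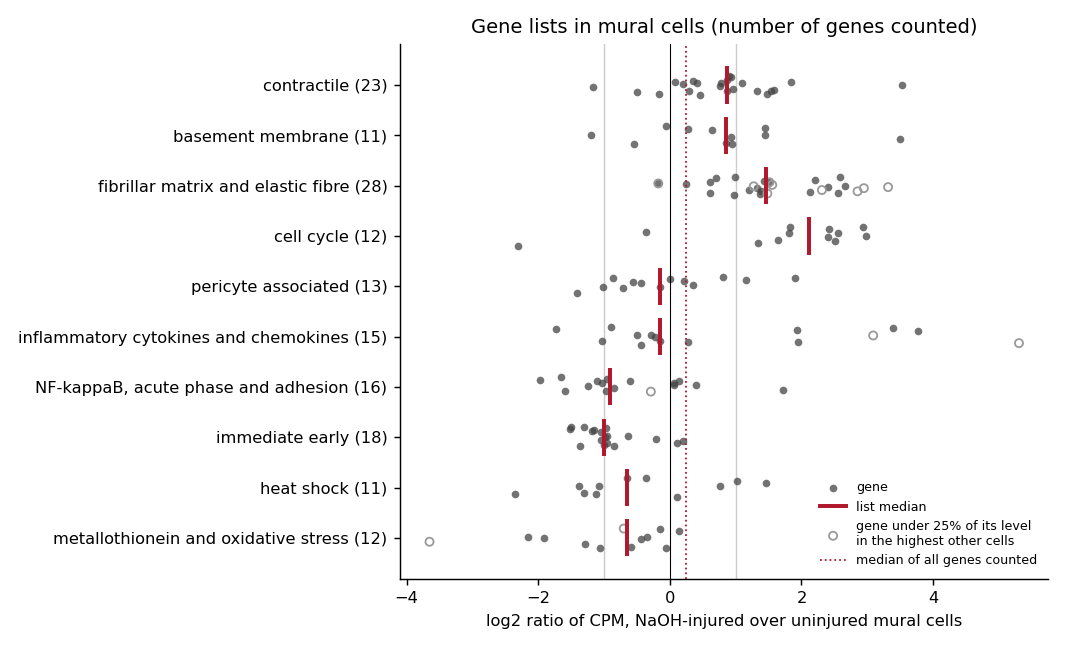
Log2 ratio of CPM in NaOH-injured over uninjured mural cells for each counted gene of 10 lists, with list medians as bars, genes at free RNA levels as open circles and the median of all 2282 genes as a dotted line. Contractile, basement membrane, fibrillar and cell cycle medians lie to the right of the dotted line, but the interval of the basement membrane median (−0.54 to 1.45) holds that line. The other medians, the immediate early one among them, lie to its left.

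Chemokine and cytokine genes split. Of 15 counted, 6 were higher and 2 lower, with a median log2 ratio of −0.15 (−0.49 to 3.09). Ccl2 (chr11:82035571-82037453) stood at 3015 CPM in injured and 779 CPM in uninjured cells, 3.87-fold higher (3.14 to 4.82), in 61 of 84 injured and 18 of 52 uninjured cells. Its neighbour Ccl7 (chr11:82045712-82047525), another monocyte attractant, had 224 UMIs in 35 injured cells and none in the 52 uninjured cells. The interval of its ratio ran from 11.1 upward. Myeloid cells of the injured library held Ccl7 at 834 CPM, against 349 CPM in the mural cells, and myeloid markers were found in injured mural cells alone, as given above; their part was not tested. Il11 (an interleukin-6 family cytokine tied to fibrosis) had 171 UMIs in 22 injured cells and 1 UMI in 1 uninjured cell, with an interval of the ratio from 5.56 to 1248, and 1 cell held 32.2% of the injured UMIs. Lif, of the same family, had 62 UMIs in 21 injured cells and none in uninjured ones, 3.80-fold higher with the uninjured count set to 3 UMIs.

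Other cytokines stood closer between the libraries over all mural cells. Il6 stood at 1541 CPM in injured cells (1446 to 1640) and 1711 CPM in uninjured cells (1483 to 1964), with overlapping intervals. On the smooth muscle side Il6 stood at 1820 CPM in injured and 636 CPM in uninjured cells, 2.86-fold higher (1.48 to 6.35) on 9 uninjured UMIs, and on the pericyte side at 1213 and 1340 CPM. Cxcl1 (which attracts neutrophils) stood at 3604 and 2965 CPM. Cxcl2 and Cxcl5 were higher but at free RNA levels beside the neutrophils of the injured library. Cxcl12 and Cxcl10 were lower. Cxcl10 stood at 207 CPM in injured and 686 CPM in uninjured cells, but 1 uninjured cell held 59.3% of its UMIs. Cxcl9, also among the named lower genes, had all of its 12 uninjured UMIs in 1 cell.

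Some interferon-induced genes stood lower in injured mural cells. Isg15 (a ubiquitin-like protein; chr4:156199424-156200818) stood at 139 CPM in injured cells (111 to 170) and 1465 CPM in uninjured cells (1255 to 1701), 10.6-fold lower (8.15 to 13.8), and was found in 40 of 84 injured and 37 of 52 uninjured cells. Iigp1 (an interferon-induced GTPase) stood at 181 CPM in injured and 1304 CPM in uninjured cells, in 25 and 22 cells. Endothelial cells held more Iigp1, at 538 CPM in the injured and 1901 CPM in the uninjured library, and their part was not tested. On the list, 2 of 7 counted genes were lower (Isg15 and Irf1) and none higher, while Ifitm2, at 1220 CPM in injured and 1406 CPM in uninjured cells, and Ifitm3, at 2616 and 3447 CPM, stood less than 2-fold apart. Of 6 MHC class I genes only H2-Q4 passed 2-fold, being lower.

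Immediate early genes, which encode short-lived factors induced within minutes by stress or growth factors, stood lower in injured mural cells. Of 18 counted, 9 were lower, none was higher, and the interval of the median log2 ratio ran from −1.18 to −0.85. Jund stood at 868 CPM in injured and 2499 CPM in uninjured cells, Egr1 at 556 and 1432 CPM, Atf3 at 676 and 1677 CPM, and Junb at 2675 and 5167 CPM, just under 2-fold. The list was lower on both sides of the split, for 12 of 14 genes on the smooth muscle side, against 10.7% of all 382 genes counted there, and for 13 of 17 on the pericyte side, against 13.3% of 1332. Scaled by the median ratio, 5 of 18 remained past 2-fold and the median was −0.84. The NF-kappaB and acute phase list had 6 of 16 lower and 1 higher, with Cebpb at 1340 CPM in injured and 4040 CPM in uninjured cells and Icam1 (an adhesion receptor for leukocytes) at 111 and 432 CPM. Of 11 genes counted on the heat shock list, 5 were lower, among them Hspa1b, at 48.2 CPM in injured and 246 CPM in uninjured cells, and Hspb2 and Hspe1 were higher. The median log2 ratio was −0.91 (−1.24 to 0.07) for the NF-kappaB list and −0.64 (−1.38 to 1.02) for the heat shock list.

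Metallothioneins, which bind zinc and copper, were lower. Mt1 (chr8:94179082-94180327) stood at 2478 CPM in injured and 11012 CPM in uninjured cells, 4.44-fold lower (4.13 to 4.79), and was found in 78 of 84 injured and 51 of 52 uninjured cells. Epithelial cells held 1408 CPM of Mt1 in the injured and 4092 CPM in the uninjured library, below the mural level in each, while stromal cells of the injured library held 2240 CPM and Schwann cells of the uninjured library 10775 CPM, close to the mural levels. Mt2 stood at 484 CPM in injured and 1830 CPM in uninjured mural cells. Of 12 genes of the metallothionein and oxidative stress list, 5 were lower and none higher, 1 of the 5 (Gsta4) being at free RNA levels.

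Cell cycle genes were higher for 10 of 12 and lower for 1. Top2a (topoisomerase of dividing cells) had 129 UMIs in 21 injured cells and none in uninjured cells, with an interval of the ratio from 6.33 upward. Prc1 (a spindle midzone protein) had 116 UMIs and none, with an interval from 5.69 upward. The histone gene Hist1h2ap, 1 of many near-identical copies whose reads may be shared, had 270 UMIs in 11 injured cells and 1 uninjured UMI. Cells with at least 2 of 9 mitotic genes numbered 24 of 84 in the injured library, 28.6% (19.2 to 39.5%), and 1 of 52 in the uninjured library, 1.92% (0.0487 to 10.3%). After thinning to 1000 UMIs they numbered 12 of 83, 14.5% (7.70 to 23.9%), and 0 of 50, which allows up to 7.11%. By side, before thinning, they were 4 of 17 smooth muscle-side (6.81 to 49.9%) and 16 of 40 pericyte-side cells (24.9 to 56.7%) of the injured library. Between cells gave 4 of 27 (4.19 to 33.7%), and the intervals overlapped. Pericyte-side cells were also deeper, with a median of 8748 UMIs against 5586 and 5006 UMIs, and the part of depth was not tested. Ccnd1 (cyclin D1) stood at 199 CPM in injured and 33.9 CPM in uninjured cells. Cdkn1a (the cycle inhibitor p21) was the list member that was lower, at 511 CPM in injured and 2524 CPM in uninjured cells, 4.94-fold lower (4.21 to 5.80), and it was detected in 68 of 84 and 47 of 52 cells.

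Receptor, channel and signalling lists held calls in both directions, beside 20.1% higher and 9.64% lower over all genes counted. Of 13 pericyte list genes, 2 were higher and 2 lower, near those shares, with a median log2 ratio of −0.15. Thy1 (a surface glycoprotein of fibroblasts and perivascular cells) stood at 507 CPM in injured and 136 CPM in uninjured cells, and Cspg4 (the proteoglycan NG2) at 114 and 50.8 CPM, with an interval of the ratio that held 1 (0.979 to 6.29). Thy1 was higher on the pericyte side, at 689 against 142 CPM, and stood at 220 against 283 CPM on the smooth muscle side. Cd248 (endosialin, of perivascular cells in growing vessels) was not on the list and had 160 UMIs in 44 injured cells and 2 UMIs in 2 uninjured cells, at 249 and 16.9 CPM. Gucy1a1 stood at 188 and 381 CPM and Rgs4 at 115 and 305 CPM in injured and uninjured cells.

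Of 10 counted channel and caveola genes, Cav1 and Cavin3, which build caveolae, Cavin2 and Trpc6 (a cation channel) were higher, and Abcc9, itself a choosing marker, was lower. The intervals of Cavin2 (0.878 to 6.92) and Trpc6 (0.861 to 8.93) held 1. Over all genes 20.1% were higher and 9.64% lower, and the list counts here stand beside these shares. Kcne4, a potassium channel subunit named among the lower genes, stood at 49.8 CPM in injured and 322 CPM in uninjured cells. Of 10 vasoactive receptor and nucleotide signalling genes, Gucy1a1 was lower and Ednrb higher, the second at 837 CPM in injured and 305 CPM in uninjured cells, while its relative Ednra stood at 143 and 161 CPM. Of 21 genes of endothelial to mural signalling, Angpt2 (a Tie2 ligand) and Tgfb1 were higher, each on 4 uninjured UMIs, and the interval of Angpt2 (0.897 to 9.26) held 1. Id1, Id3, Hes1, Bmpr2 and Cxcl12 were lower, and Id3, a target of BMP signalling, stood at 1679 CPM in injured and 3854 CPM in uninjured cells. Pdgfrb stood at 289 and 322 CPM.

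The largest lower ratio of all named genes was that of Rasl11a, a small GTPase-like protein (chr5:146845071-146847726), at 40.5 CPM in injured and 661 CPM in uninjured cells, 16.3-fold lower (10.4 to 26.5). It was found in 20 of 84 injured and 21 of 52 uninjured cells and was lower on both sides of the split, at 52.8 against 1766 CPM on the smooth muscle side and 27.0 against 331 CPM on the pericyte side. Hspa2 (a protein of the HSP70 family that was not on the heat shock list), Bambi (a decoy receptor for TGF-beta and BMP), Tuba4a, Slc16a3 (a lactate exporter), Txndc11, Prkx and Fabp3 (a fatty acid carrier, with its uninjured UMIs in 2 cells) complete the lower genes, at 6.53 to 8.71-fold lower. Apart from Hspa2, these genes and Cxcl9 had fewer than 50 UMIs over both libraries, so they are not among the 2282 genes counted. Their intervals are wide. Prkx, on 10 injured and 12 uninjured UMIs, was 2.59 to 16.9-fold lower, and Slc16a3, on 10 and 16 UMIs, 3.72 to 21.5-fold. Abracl, Ube2c (a ubiquitin-conjugating enzyme of mitosis), Cnn2 (calponin 2, an actin-binding protein) and Tmem258 complete the higher genes, each on 2 to 4 uninjured UMIs.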

How the data were processed

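Single-cell RNA was measured in 2 libraries, 1 NaOH-injured and 1 uninjured. The deposited values are raw UMI counts for 32285 genes, which the authors made with Cell Ranger (version 7.0.1 per the file headers). The submitters' processing notes name GRCm38. Neither the 10x chemistry nor the gene annotation is stated. The mural cells, gene lists and named-gene rule were chosen with earlier results of these data known.

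Counts were summed over mural cells per library, or per library and side, and divided by the sum to give CPM. A list counts genes with at least 50 UMIs over both libraries. Levels carry exact Poisson, ratios conditional binomial and shares Clopper-Pearson intervals at 95%; in a ratio fewer than 3 UMIs were set to 3, which makes a ratio to 0 UMIs a limit, and ratios on 1 to 3 UMIs are given by their interval. No test was made, since each group has 1 library. Named genes are the 12 in each direction with the largest ratio, of at least 100 CPM in 1 library and 25% of the level in any other group of cells there; for the sides and for mural over other cells, the 10 with the largest smaller-of-both ratio. Mitochondrial, ribosomal, hemoglobin, sex-linked, predicted and choosing genes were left out. Other groups were assigned by markers, in the order epithelial, neutrophil, myeloid, endothelial, Schwann, stromal and rest. Doublets were not called. An alternative leaves out mural cells with markers of another type. It sets limits on endothelial, myeloid, Schwann and neutrophil markers and on high stromal levels, and none on epithelial markers. Coordinates come from GENCODE M21, matched by Ensembl ID for 299 of 299 genes, and promoters from RefSeq (GRCm38.p6). Python 3.11.15, numpy 2.4.6, scipy 1.17.1 and pandas 2.3.3 were used, and the counting was tested on simulated data.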

Additional observations from a re-analysis of the deposited data

How the results depend on the processing

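No paired analysis was possible because each group has 1 library and no result comes from a test. Of the 24 genes named between the libraries, 203 of 203 values under the alternatives kept their direction and 196 stayed past 2-fold. Alternatives with too few UMIs for a ratio of a gene were left out of the 203. Of 180 values for the 20 genes named between the sides, 179 kept their direction and 114 were past 2-fold. These 20 include Trib1, Steap4, Emp1 and Krt5, which had not passed 2-fold in both libraries. Both sets were chosen for the largest ratios in the same counts, so these numbers are no independent support. Counts moved more. The genes higher in injured cells numbered 302 of 1740 counted (17.4%) without members carrying markers of another type. They numbered 42 of 403 (10.4%) with cells thinned to 1000 UMIs and 81 of 592 (13.7%) with at least 200 UMIs. Within smooth muscle-side cells they numbered 57 of 382 (14.9%). With a mean of at least 100 CPM (added after the data were seen) they numbered 181 of 1478 (12.2%). Those lower numbered 58 of 403 (14.4%) when thinned and 70 of 592 (11.8%) with at least 200 UMIs. Within smooth muscle-side cells 41 of 382 were lower (10.7%), and with no minimum 1679 of 6514 (25.8%). The protease median, 1.71 as reported, was 0.62 without members carrying markers of another type, 0.04 with at least 200 UMIs or a mean of at least 100 CPM, and −0.91 when thinned, on 6 genes, and the immediate early median was −0.84 after scaling. Between the sides, 17 of 596 genes were higher and 8 lower as reported. With keratins below 1000 CPM 10 of 385 were higher and 4 lower, and when thinned 6 of 245 were higher and 5 lower. That keratin limit also left 77 injured mural cells, 0.855%, and 31 uninjured ones, 0.433%. The cause of each move was not tested, beyond fewer cells or genes entering. The uninjured depth, 118058 UMIs, limits genes under about 100 CPM there, and intervals hold no variation between mice.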

Other observations

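Of 9 counted respiratory chain isoform genes none passed 2-fold, with a median log2 ratio of 0.59 against 0.25 for all genes. Ndufa4l2, a hypoxia-responsive subunit relative kept by pericytes, stood at 967 CPM in injured and 754 CPM in uninjured cells, and its counterpart Ndufa4 at 143 and 136 CPM. Cox4i1, the common isoform of the cytochrome oxidase subunit whose other form is the choosing marker Cox4i2, stood at 1275 CPM in injured and 847 CPM in uninjured cells. Within pericyte-side cells 2 of 8 such genes were higher, with a median of 0.87, and after scaling by the median ratio 2 of 9. Over all genes counted, 26.4% were higher within pericyte-side cells, with a median of 0.36, and 25.3% after scaling. Of 13 glycolysis and hypoxia genes, Eno1 (129 and 33.9 CPM) and Pkm (411 and 203 CPM in injured and uninjured cells) were higher and none was lower. Over all genes 20.1% were higher and 9.64% lower. Within pericyte-side cells 4 of the 13 were higher, and after scaling 4 of 13, beside the all-gene shares of 26.4 and 25.3%. The 12 mitochondrially encoded genes counted had none past 2-fold and a median log2 ratio of 0.03. Between the sides, 11 were counted, and their medians of smooth muscle over pericyte side were 0.33 in injured and 0.37 in uninjured cells.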
